A study of Mus musculus with 7 samples.

Results

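Of the regions of the mouse muscle stem cell (MuSC) genome at which CUT&Tag found TRF2, this account describes those lying at the promoters of protein-coding genes. TRF2 peaks of 2 libraries were merged on chromosomes 1 to 19, and a region was kept if it held a peak of each replicate, overlapped no peak of the IgG library and lay within 1 kb of a protein-coding transcript start in GENCODE M21. This gave 4471 regions, out of 20271 merged TRF2 regions with a peak in either replicate and 7287 with a peak in both on these chromosomes. They made up 61.4% of the latter (exact 95% interval 60.2 to 62.5). The regions were thus chosen by the TRF2 and IgG peak calls themselves, so the TRF2 values that follow are a description and carry no test.

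The 2 TRF2 libraries and the single IgG library came from wild-type MuSCs of the tibialis anterior muscle, labelled as 3 days after notexin, a toxin that destroys muscle fibres. The methods of the study give an earlier time for CUT&Tag, and name Pax7gCre/gCre;TdTomato fl/fl mice as the donors, so that these cells may carry a Cre gene at Pax7. CUT&Tag uses an antibody to bring a transposase to the chromatin that a protein occupies. The 2 Control and 2 TRF2KO libraries were made by ATAC-seq, which maps open chromatin as the sites an unguided transposase can reach, from MuSCs of uninjured hind limb, labelled 0 h. In the study's TRF2 MuSC-cKO mice, floxed Terf2 was deleted by a tamoxifen-induced CreER expressed from Pax7, which marks MuSCs, with tamoxifen started in young adult C57BL/6 mice. For the TRF2KO libraries a label field gives wild type as the genotype, and the groups follow the titles instead. TRF2 was therefore mapped in injured muscle and chromatin opening in uninjured muscle, and no TRF2 library from TRF2KO cells was analysed here.

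TRF2 is a protein of shelterin, the complex that coats the repeated DNA of chromosome ends and hides them from DNA repair. It binds double-stranded telomeric repeats through a Myb-type domain, and has also been described at sites inside chromosomes, including sequences that can fold into a G-quadruplex (G4), a stack of guanine tetrads. Promoters of widely expressed genes are usually rich in CpG and open in most cell types, whereas promoters of genes restricted to one lineage often are not. MuSCs sit beneath the basal lamina of the fibre, are marked by the transcription factor Pax7, and supply the nuclei with which muscle is rebuilt after injury.

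The TRF2 lists held 12066 and 15223 MACS peaks on chromosomes 1 to 19, the IgG list 640 and the ATAC lists between 82556 and 98558. At the described regions the highest TRF2 summit rested on a median of 12 fragments in each replicate, as recovered from each peak's fold and p, with a range of 4 to 54 in replicate 1 and 4 to 81 in replicate 2, so a single promoter's fold is imprecise. A fold is the fragment pileup at the summit over the local background, and a rank is the percentile of that fold in its own list. In cell populations a promoter bound in few cells and one bound weakly in all cannot be told apart. The promoter of Pax7 had an ATAC peak in all 4 libraries, at ranks of 88.0 to 91.5. The median rank of all open coding genes was near these, at 88.7 in Control replicate 1. The promoter of Myod1, the myogenic commitment factor, had ranks of 96.7 to 98.2. Among marker genes of other muscle-resident cells 13 of 23 were also open in all 4 libraries, and among genes restricted to other organs 4 of 31. At Terf2 itself, the gene deleted, the ATAC fold at the promoter was 54.3 and 48.4 in Control against 21.5 and 18.6 in TRF2KO, without overlap.

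The sequences that follow are shown because they span the range of what lies under these regions. They were read from RefSeq GRCm38.p6, the chromosome sequences of mm10, on the plus strand, and bases annotated as UTR were left out. Pkn2, a protein kinase of the PKC-related family, and Evi5l, a Rab GTPase-activating protein, were among the 10 regions of highest TRF2 rank and held a G4 motif, in capitals, upstream of their starts at positions 142882004 and 4166567.
Pkn2, chr3:142882227-142882426: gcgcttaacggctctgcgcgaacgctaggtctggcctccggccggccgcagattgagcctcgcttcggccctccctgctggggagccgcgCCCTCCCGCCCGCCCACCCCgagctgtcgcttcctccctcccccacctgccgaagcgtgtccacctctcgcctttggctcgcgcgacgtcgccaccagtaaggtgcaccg
Evi5l, chr8:4166367-4166566: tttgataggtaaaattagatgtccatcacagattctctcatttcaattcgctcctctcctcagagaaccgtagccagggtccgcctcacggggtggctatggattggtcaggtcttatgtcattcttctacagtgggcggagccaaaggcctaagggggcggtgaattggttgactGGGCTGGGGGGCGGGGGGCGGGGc
Cd34 and Dag1 were named by the study as TRF2-associated genes. Neither region held a G4 motif with loops of 1 to 7 bases, the pattern used here. The study called G4 sequences with other algorithms, so its calls are not compared. The Cd34 stretch runs from the first coding exon into the intron, and the Dag1 stretch lies directly upstream of a Dag1 start.
Cd34, chr1:194938966-194939165: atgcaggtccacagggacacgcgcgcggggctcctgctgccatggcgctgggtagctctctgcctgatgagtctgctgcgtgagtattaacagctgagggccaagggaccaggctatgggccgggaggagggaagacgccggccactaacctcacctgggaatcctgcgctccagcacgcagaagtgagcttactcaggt
Dag1, chr9:108263959-108264158: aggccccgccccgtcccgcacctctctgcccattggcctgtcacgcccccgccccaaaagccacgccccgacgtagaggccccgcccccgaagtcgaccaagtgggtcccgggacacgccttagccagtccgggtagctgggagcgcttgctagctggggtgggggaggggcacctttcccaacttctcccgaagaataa
Uxs1, an enzyme of UDP-xylose synthesis, was one of only 2 regions with 2 telomeric units in a row, in capitals. It was chosen after its values were seen.
Uxs1, chr1:43827274-43827473: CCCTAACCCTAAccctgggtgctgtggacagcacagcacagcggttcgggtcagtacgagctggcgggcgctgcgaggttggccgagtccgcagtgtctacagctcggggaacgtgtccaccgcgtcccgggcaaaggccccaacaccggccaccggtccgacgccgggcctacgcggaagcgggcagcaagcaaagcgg
Gm20594 and Plcb4 had the highest TRF2 ranks of all. Of the 267 bases of the Gm20594 region, 65 lay in runs of 50 or more identical to the mitochondrial genome, the only such region, and 87.5% of the Plcb4 region is marked as repeat in the reference. Plcb4 encodes a phospholipase C of G-protein signalling, and its stretch is intronic.
Gm20594, chr6:79818251-79818361: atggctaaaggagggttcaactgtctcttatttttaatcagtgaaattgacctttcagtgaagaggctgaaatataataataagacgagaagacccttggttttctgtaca
Plcb4, chr2:135988578-135988777: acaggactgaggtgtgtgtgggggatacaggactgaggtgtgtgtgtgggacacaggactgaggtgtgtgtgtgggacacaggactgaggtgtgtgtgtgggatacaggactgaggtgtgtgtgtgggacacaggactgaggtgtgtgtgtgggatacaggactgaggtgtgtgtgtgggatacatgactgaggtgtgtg

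TRF2 enrichment at coding promoters was modest and varied severalfold. The median fold was 6.48 in replicate 1, with a range of 3.14 to 22.5, and 6.85 in replicate 2, with a range of 3.04 to 31.2. Across the 4471 regions the folds of the replicates were ordered alike only in part (Spearman correlation 0.551 across regions, which share libraries and are not replicates). Regions over 1 kb from a coding start, of which 2581 met the other criteria, had median folds of 5.75 and 6.19. Coding promoters with a peak in 1 replicate only numbered 1602 for replicate 1 and 2034 for replicate 2, and had median folds of 5.01 and 5.21. The promoters left out for lack of a second peak had lower folds than those kept. The peak calls that set these groups also gave the folds, so the difference is not a separate result.

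**Figure D1:**
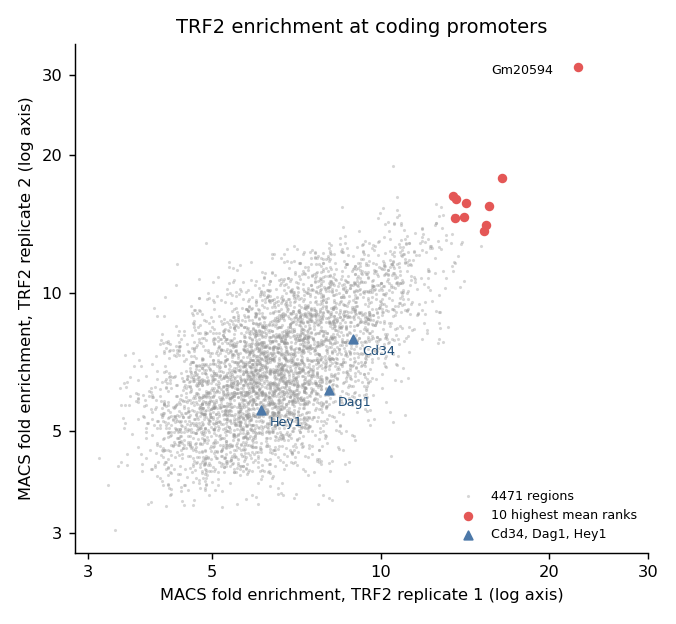
MACS fold enrichment at each of the 4471 regions in TRF2 replicate 1 (horizontal) and replicate 2 (vertical), both on log axes, with 1 point per region. Red circles mark the 10 regions of highest mean rank, of which Gm20594 at 22.5 and 31.2 stands apart, and blue triangles mark Cd34, Dag1 and Hey1 inside the cloud.

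The 10 regions of highest mean rank belonged to genes of unlike function. Gm20594, a predicted coding gene, had folds of 22.5 and 31.2 with an ATAC peak in all 4 libraries. Plcb4 had folds of 16.4 and 17.8, and its ATAC peaks were weak, absent from Control replicate 1 and at folds of 5.4, 7.78 and 6.36 in the others. The remaining 8 regions lay under ATAC peaks of all 4 libraries. Their genes were Cbwd1, a putative metallochaperone, with folds of 15.6 and 15.5, Tmx3, a disulfide isomerase of the endoplasmic reticulum, Samd4b, an RNA-binding protein, whose region is shared with Gmfg, and Fam98a. They also included Pkn2, Add3, an adducin of the membrane skeleton, Kctd9, whose region is shared with the cell cycle gene Cdca2, and Evi5l. Tmx3, Pkn2, Add3, Kctd9 and Evi5l held a G4 motif and the other 5 did not. Repeats were uncommon beneath the regions as a whole: the median region had 3.45% of its bases marked as repeat, and 2 regions had over 50%. Whether reads from other copies of these sequences contribute to Gm20594 and Plcb4 was not tested.

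Within the limit of 1 kb that the criteria set at the region's edge, TRF2 summits lay close to the start site. The mean of the 2 replicate summits fell a median of 24 bp upstream of the nearest coding start (binomial 95% interval of the median -28 to -20), and its median absolute distance was 86 bp. It was within 100 bp of a start at 55.7% of regions, within 250 bp at 86.8% and within 500 bp at 95.6%. Upstream summits numbered 2652 (59.3%), downstream summits 1795, and 24 fell on the start base. The region itself contained a coding start in 3922 cases (87.7%). The replicate summits lay a median of 73 bp apart, so positions finer than that are not resolved. Set against the start of the gene rather than the nearest transcript, the median was 19 bp downstream.

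In the annotation, the summit lay outside coding transcripts at 1895 regions (42.4%), in a 5′ UTR at 1552 (34.7%), in an intron at 765 (17.1%), in coding sequence at 252 (5.64%) and in a 3′ UTR at 7. The ATAC summit of the same promoter was a median of 72 to 74.5 bp from the TRF2 summit, depending on the library, and the TRF2 summit lay 23 to 26 bp downstream of it. ATAC summits at these promoters had a median position of -46 to -48 bp from the start. Promoters open in all 4 libraries without any TRF2 or IgG peak had their ATAC summits at -14 to -16 bp in the median. Their median absolute distance from the start was larger, at 105 to 112 bp against 71 to 73 bp.

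**Figure D2:**
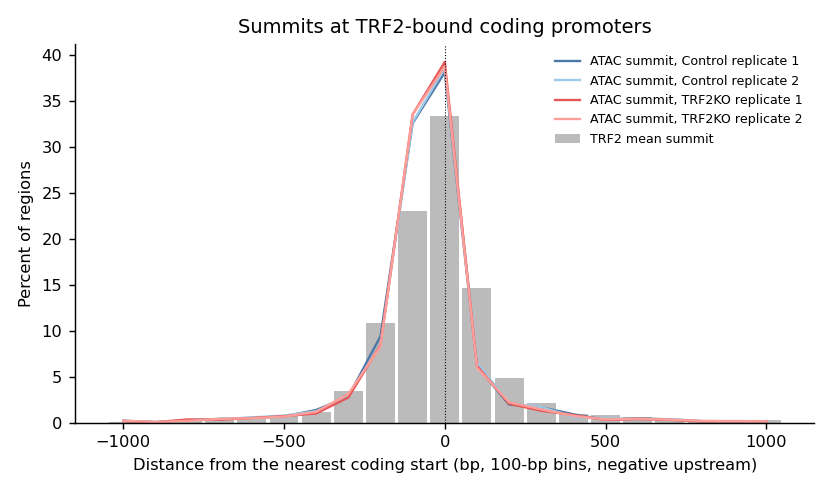
Percent of regions (vertical) by distance of the summit from the nearest coding start in bp (horizontal, 100-bp bins, negative upstream). Grey bars are TRF2 mean summits and lines are the ATAC summits of the same regions in the 4 libraries. The central bin holds 33.4% of TRF2 summits and the bin upstream of it 23.0%, and the 4 ATAC lines overlie each other.

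The limit of 1 kb cut into a thin tail. The members nearest to it were Map1b, encoding a microtubule-associated protein, 994 bp from a start at its edge, with folds of 7.14 and 7.56, Ehbp1l1 at 987 bp with folds of 8.98 and 6.71, and Arhgap22, a Rac-directed GTPase-activating protein, at 971 bp with folds of 5.4 and 9.54. The nearest regions outside were those of Foxo3, a forkhead factor of quiescence, at 1014 bp with folds of 5.57 and 3.99, Kat2b, an acetyltransferase, at 1025 bp with 4.76 and 6.24, and Prr13 at 1032 bp with 6.39 and 6.71. The values inside and outside overlapped.

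Nearly every TRF2 region at a coding promoter was open in uninjured MuSCs of both genotypes. The Control libraries had a MACS ATAC peak at 4453 and 4455 regions, the TRF2KO libraries at 4449 and 4450, and 4441 (99.3%, exact 95% interval 99.0 to 99.5) had one in all 4. Of the rest, 9 had a peak in 3 libraries, 6 in 2, 4 in 1 and 11 in none. Among TRF2 regions over 1 kb from a coding start, 71.3% (69.5 to 73.1) were open in all 4 libraries and 492 of 2581 had no ATAC peak. Promoter regions with a TRF2 peak in only 1 replicate were open in all 4 libraries in 94.6% and 93.0% of cases. By SEACR, a stricter caller with 16911 to 25970 ATAC regions per library, the share open in all 4 was 93.6%, and by GoPeaks 99.2%.

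The exceptions were few. Of the 11 regions with no ATAC peak, Zfand4 had the highest TRF2 folds, 9.4 and 11.5, in an intron. Gm3776 followed with 6.66 and 5.58, and Ankrd55 with 5.49 and 6.73. A peak in both Control libraries and neither TRF2KO library was found at 2 regions, Gm3238 and Samd11, where the Control folds were 3.91 and 3.24 at the former and 3.45 and 3.06 at the latter, near the lower end of the lists. No region had the opposite pattern, a peak in both TRF2KO libraries and neither Control library.

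TRF2 regions lay at the strongest ATAC peaks. Over the 4441 regions open in all 4 libraries the Control libraries had median ATAC ranks of 95.4 and 96.1 and the TRF2KO libraries of 95.6 and 95.5. The 6439 open coding promoters with no TRF2 or IgG peak had median ranks of 70.6 to 74.8. When the 14169 open coding promoters were divided into deciles of their ATAC fold in Control replicate 1, 1.41% of the lowest decile held a TRF2 region and 84.7% of the highest, with a rise at every step. The other 3 libraries gave 85.1% to 85.8% in the highest decile. ATAC peaks at TRF2 regions were also wider, with a median of 1481 to 1602 bp against 970 to 1108 bp at promoters without TRF2. Within the TRF2 regions, TRF2 fold and ATAC fold were correlated across regions (Spearman correlation 0.401 to 0.446 over the 8 pairs of libraries, described without a test since regions share libraries and depth). Both assays use a transposase, and the part of chromatin opening in the TRF2 signal was not tested. The IgG library, made the same way, had 29 of its 640 peaks (4.53%) within 1 kb of a coding start, against 50.5% and 43.2% of the TRF2 peaks, but its list was far shorter.

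**Figure D3:**
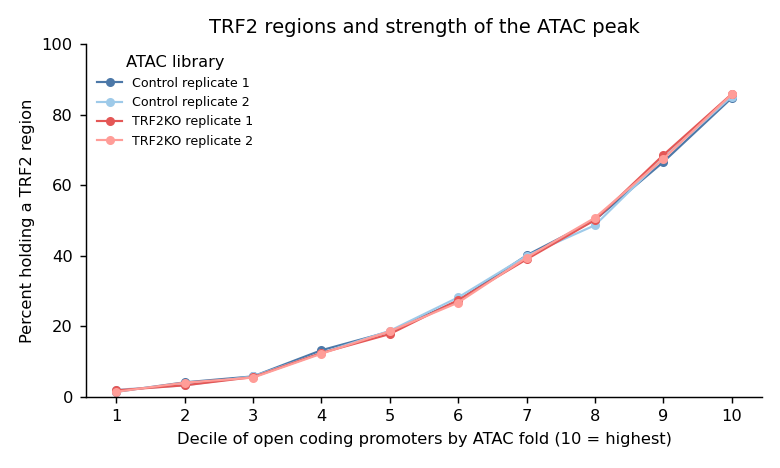
Percent of open coding promoters that hold a TRF2 region (vertical, 0 to 100) by decile of ATAC fold (horizontal, 10 is highest), with 1 line for each of the 4 ATAC libraries. Every line climbs from 1.41% to 1.98% in the lowest decile to 84.7% to 85.8% in the highest.

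The share of genes reached was 5055 of 20757 protein-coding genes (24.4%), and of the 13485 genes open in all 4 ATAC libraries 5039 (37.4%). Most regions, 3809, had 1 coding gene within 1 kb, 642 had 2 and 20 had 3 or more, while 93 genes had 2 regions and 3 had more. Genes on both strands shared 623 regions (13.9%), whereas 4.58% of open promoters without TRF2 had coding starts on both strands. The shares of all open genes, 37.4%, and their median ATAC rank in Control replicate 1, 88.7, stand beside the lists below, since TRF2 regions were so much more common at strong peaks.

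**Figure D4:**
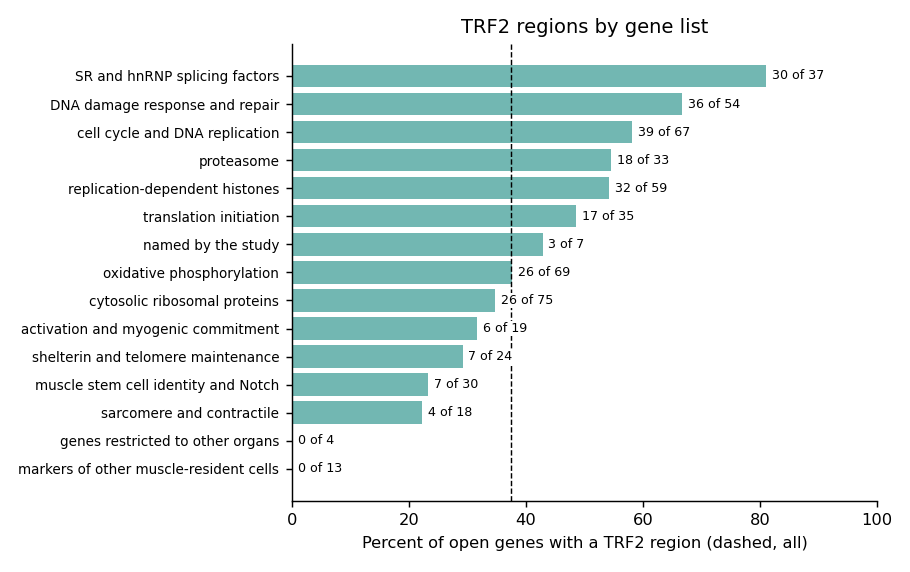
Percent of each gene list's open genes with a TRF2 region (horizontal, 0 to 100), with the counts at the bar ends and the share of all open coding genes, 37.4%, as a dashed line. Splicing factors lead at 30 of 37, and no marker of other muscle-resident cells or of other organs has a region.

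Among the lists compared, splicing factors, repair genes and cell cycle genes held the largest shares. Of the SR proteins and hnRNPs, which bind pre-mRNA and steer splicing, 30 of 37 open genes had a TRF2 region (81.1%), in a list whose open genes had a median ATAC rank of 97.6. Hnrnpa2b1, in a region shared with the heterochromatin gene Cbx3, had folds of 11.8 and 10.8, Hnrnpl 9.3 and 10.1, Pcbp2 8.04 and 11.2, and Hnrnph3, shared with Pbld2, 9.85 and 8.71. DNA damage response and repair genes followed with 36 of 54 (66.7%, median rank 92.7). The mismatch repair gene Msh3 had folds of 11 and 13.1. Fancc, of the Fanconi anaemia core complex, had 8.71 and 11.6, and Rpa3, a subunit of the single-strand binding protein RPA, 10.6 and 9.09 in a region shared with Umad1.

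Of the cell cycle and DNA replication genes 39 of 67 open genes had a region (58.2%, median rank 93.0), among them Gins2 of the replicative helicase with folds of 10.9 and 10.5, Cdk4, the cyclin D kinase, with 10.8 and 9.54, the spindle checkpoint gene Mad2l1 with 9.99 and 9.55, and the origin recognition subunit Orc4, shared with Mbd5, with 7.81 and 12. The replication-dependent histones had 32 of 59 (54.2%, median rank 89.1). Hist2h4 had folds of 10.8 and 9.5, Hist2h2bb and Hist2h3b shared a region with 8.46 and 9.19, and Hist1h2bp and Hist1h2an shared one with 7.33 and 11.4. Histone genes are near-identical copies and many share a promoter, so their counts are not independent.

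Lists of protein turnover, protein synthesis and respiration ran from 54.5% down to 34.7%. Proteasome genes had 18 of 33 (54.5%), with the ATPase subunit Psmc6 at folds of 10.1 and 8.71, Psma2 at 8.71 and 8.86 in a region shared with Mrpl32, the lid subunit Psmd12 at 7.41 and 10.2, and Psma4 at 9.42 and 7.84 in a region shared with AY074887. Translation initiation genes had 17 of 35 (48.6%), with Eif3j1 at 12.3 and 12.7, Eif5 at 10.8 and 8.48, the helicase Eif4a1 at 7.79 and 8.75, and Eif4g2 at 6.61 and 10.4. Oxidative phosphorylation genes had 26 of 69 (37.7%), with Uqcrq and Uqcrh of complex III at 10.6 and 10.9 and at 9.14 and 9.06, Ndufa8 of complex I at 6.62 and 9.23 and Atp5j of ATP synthase at 7.02 and 7.93. The last 3 shared regions with Lrrc41, Morn5 and Gabpa. Cytosolic ribosomal protein genes had 26 of 75 (34.7%), near the 37.4% of all open genes, with a median rank of 94.4. The median ranks of the proteasome, translation initiation and oxidative phosphorylation lists were 93.5, 93.6 and 91.1. Rpl15, shared with Nkiras1, had 10.7 and 14.7, Rps23 7.54 and 12.4, Rps29 8.71 and 8.11, and Rps16 7.49 and 9.19.

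Lists of muscle lineage and telomere genes held shares below the 37.4% of all open genes. These lists were short, and some of the shares lay near that value. Of the MuSC identity and Notch genes, all 30 of which were open, 7 had a region (23.3%, median rank 91.8). These were Cd34, a surface sialomucin used to sort MuSCs, with folds of 8.91 and 7.94, the chondrolectin gene Chodl with 6.14 and 6.58, Itgb1, the integrin partner by which MuSCs hold the basal lamina, with 6.77 and 5.16, Hey1, a Notch effector, with 6.12 and 5.56, and Megf10, Fgfr1 and Cxcr4. Of the genes of activation and commitment 6 of 19 open genes had one (31.6%, median rank 97.5). The immediate early genes Jun and Egr1 had folds of 7.81 and 8.3 and of 6.36 and 7.41. The stress factor Atf3 had 7.13 and 6.09. The myogenic factor Myf6 had 8.18 and 7.41, with its summit 1016 bp downstream of the start. Mef2d and Id3 also had a region. Sarcomere genes had 4 of 18 (22.2%, median rank 84.6). Mylpf, a fast myosin light chain, had 7.24 and 7.91, and Actn2 7.29 and 6.37. Actn3 had 5.7 and 7.53, and Des, the muscle intermediate filament, 5.32 and 5.39. The Mylpf and Actn3 regions were shared with Tbc1d10b and Zdhhc24. Of the genes of shelterin and telomere maintenance 7 of 24 had a region (29.2%, median rank 91.8). With a TRF2 peak of either replicate counted, open or not, 19 of 25 had one within 1 kb of a start. The same count gave 42 of 55 repair genes and 35 of 37 splicing factors. It gave 48 of 75 ribosomal protein genes and 13 of 30 MuSC identity and Notch genes. No share of all coding genes stands beside this looser count. Ctc1 and Ten1 of the CST complex had 6.76 and 7.2 and 6.31 and 6.7, Terf1, the other telomere repeat binder of shelterin, 6.07 and 6.81, the helicase Wrn, shared with Purg, 6.39 and 6, and the others were Pot1b, Tep1 and Tnks. No marker of other muscle-resident cells (13 open) and no gene restricted to other organs (4 open) had a region. The open genes of these lists had low median ATAC ranks of 78.3 and 43.7, against 88.7 for all open genes. A TRF2 peak of at least 1 replicate lay near a start at 3 of the 23 markers. The part of peak strength in these shares was not tested. These lists were assembled with results of these data known, and the shares were not tested.

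Of the 7 genes that the study named at TRF2 sites, Cd34, Hey1 and Dag1 had a region at a coding start. That share, 42.9%, was near the 37.4% of all open genes. The study placed its sites at regulatory regions, which need not lie within 1 kb of a start. Dag1 encodes dystroglycan, which ties muscle fibres and MuSCs to laminin, and had folds of 8.07 and 6.15. Pax7 had no TRF2 peak of either replicate within 1 kb of a coding start. The TRF2 site that the study describes for Pax7 is an enhancer beyond the end of the gene, outside the promoters described here. Dll1, a Notch ligand, had a peak in replicate 2 alone at a fold of 4.07, as did Sdc4, a heparan sulfate proteoglycan, at 5.87, and Myod1 had one in replicate 1 alone at 5.91. Terf2 also had one in replicate 1 alone, at 5.4.

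TRF2 regions at coding promoters were rich in G and C. Their median GC content was 65.8% and their CpG observed-to-expected ratio 0.80, against 54.3% and 0.22 for TRF2 regions over 1 kb from a coding start and 50.3% and 0.13 for IgG peaks. A G4 motif, defined as 4 runs of at least 3 G on either strand with loops of 1 to 7 bases, was found in 2063 regions (46.1%, exact 95% interval 44.7 to 47.6), in 18.3% (16.9 to 19.9) of the more distant TRF2 regions and in 10.4% (8.14 to 13.0) of IgG peaks. The motif was on the coding strand only in 978 regions, on the template strand only in 736 and on both in 349. Compared at equal length, in 300-bp windows at the ATAC summit, the motif was present in 30.03% of open coding promoters with a TRF2 region, in 24.1% of those without TRF2 or IgG peaks and in 26.7% of all. GC content in these windows was 65.3%, 60.7% and 63.3%, and its part in the difference was not tested. Regions with and without a G4 motif differed little in TRF2 rank, with medians of 72.8 against 68.8 in replicate 1 and 74.6 against 71.1 in replicate 2, and were 566 and 482 bp wide in the median, a width that itself gives more room for a motif.

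Runs of telomeric repeats were not found beneath these regions. The criteria had left out 19 TRF2 regions at coding starts that overlapped an IgG peak, and the counts here do not cover them. None of the 4471 held 3 units of TTAGGG in a row on either strand, which allows a share of up to 0.0825% (exact upper limit), against 10 of 2581 more distant TRF2 regions and 24 of 656 IgG peaks of all chromosomes used. With 2 units in a row there were 2 regions, Uxs1 with TRF2 folds of 9.66 and 8.07 and Gm15446, a predicted gene, with 6.22 and 6.63. A single unit was present in 720. In the 300-bp windows at the ATAC summit the unit TTAGGG was present in 8.74% of promoters with a TRF2 region and 10.1% of those without. Repeats at chromosome ends are largely absent from the assembly, so these lists do not measure TRF2 at telomeres.

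Other short motifs in the same windows, searched on both strands, were also present at unequal shares. The GC box GGGCGG, bound by Sp factors, was present in 78.2% of promoters with a TRF2 region, in 50.8% without and in 62.9% of all, and the CCAAT box in 46.5%, 28.8% and 35.7%. The ETS core CCGGAAG gave 19.97%, 10.4% and 15.2%, and the CRE TGACGTCA, bound by CREB and ATF proteins, 4.08%, 2.30% and 3.27%. The NRF1 motif was present in 2.11% against 1.09% and the YY1 motif in 1.40% against 0.885%. In the opposite direction, the E-box CANNTG, the core bound by myogenic and other basic helix-loop-helix factors, was present in 57.4% against 70.1%, with 64.4% of all, and the TATA box TATAAA in 3.35% against 5.51%. A GC box can lie inside a G4 motif, and a match is only letters in a window. The sets also differed in GC content, at 65.3% with a TRF2 region and 60.7% without, and in ATAC rank. The part of either in these shares was not tested.

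Whether loss of TRF2 changes the opening of these promoters was asked from the MACS folds of the ATAC peaks. The median ATAC rank of the regions averaged 95.8 ± 0.50 (SD, n = 2) in Control and 95.6 ± 0.12 (SD, n = 2) in TRF2KO. The TRF2KO values lay between the Control values, and the difference of -0.21 percentile points was well within the spread of the Control libraries (exact two-sided permutation p = 1, adjusted p = 1; 2 against 2 allows no p below 0.333). The share of regions with an ATAC peak was 99.62% ± 0.032 (SD, n = 2) in Control and 99.52% ± 0.016 (SD, n = 2) in TRF2KO. These values did not overlap, but the difference of -0.10 points has the smallest p the design can give (exact permutation p = 0.333, adjusted p = 0.667, Benjamini-Hochberg over the 2 comparisons), and by SEACR it was 1.61 points the other way.

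A fit over all 61610 ATAC regions open in all 4 libraries, with limma on log2 fold centred on the median of these regions in each library, gave a result that followed the scaling. Median-centred, all open regions shifted by 0.10 on the log2 scale in TRF2KO, open promoters without TRF2 by 0.18 and the 4416 open regions that hold a TRF2 region by 0.29. By limma 3280 of the latter were called higher in TRF2KO and 10 lower at an adjusted p under 0.05, where the background over all open regions was 18.5% higher and 7.48% lower. After quantile normalization the median change of the TRF2-bound regions was 0.05, and 243 (5.50%) were called higher and 32 (0.725%) lower, against backgrounds of 4.94% and 7.32%. Without centring, 25 (0.566%) were called higher and 6 (0.136%) lower, against backgrounds of 1.34% and 6.87%. Centred instead on the median of each whole list, the regions had median log2 folds of 3.27 and 3.52 in Control against 3.45 and 3.44 in TRF2KO, which overlap. The size of the change and the number of calls thus depended on the scaling. The number of calls also depended on the variance model: median-centred but without a mean trend, 5 of the TRF2-bound regions were called. The 2 Control folds differed from each other too: the median fold at the regions was 86.3 and 76.3 there, against 92.6 and 86.2 in TRF2KO.

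Among stronger peaks the size of the change moved with the strength of the peak, whose part in the result was not tested. Median-centred, open regions without a TRF2 region changed by 0.07 in the lowest decile of mean ATAC fold, by -0.01 to 0.04 in deciles 2 to 6, and by 0.07 in decile 7 up to 0.23 in the highest. TRF2-bound regions changed by 0.11 to 0.13 in deciles 4 to 6, with 23 to 37 regions each, and by 0.22 in decile 7 up to 0.29 in the highest. After quantile normalization both values in the highest decile, which holds 2897 of the bound regions, were close to zero, at 0.03 with TRF2 and -0.01 without. In the ninth decile they were 0.10 for 960 bound regions and 0.01 for the others. The gap between bound and other regions is described here without a test, since promoters and other regions are mixed in the latter.

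**Figure D5:**
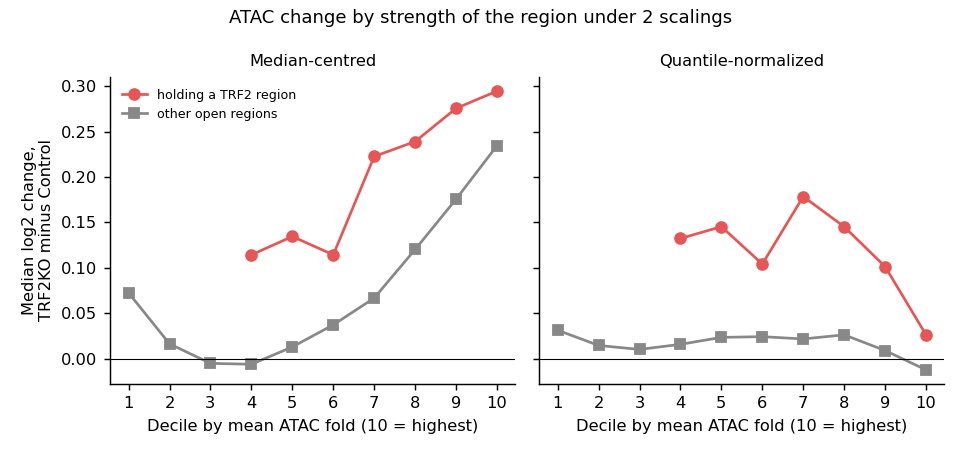
Median log2 change in ATAC fold, TRF2KO minus Control (vertical), by decile of mean ATAC fold (horizontal, 10 is highest), median-centred at left and quantile-normalized at right; red circles are regions holding a TRF2 region (deciles with at least 20 shown) and grey squares all other open regions. From decile 7 upward the values climb at left, to 0.29 and 0.23 in the highest, and lie at 0.03 and -0.01 in the highest decile at right.

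Under all 3 scalings, 25 of the 4416 TRF2-bound open regions (0.566%) were called higher in TRF2KO and 6 (0.136%) lower. Over all open regions these shares were 1.34% and 5.52%, and over open promoters without TRF2 they were 1.04% and 2.05%. The largest rise was at Ass1, the argininosuccinate synthase of arginine synthesis, where Control had ATAC folds of 32.7 and 29.9 against 60.8 and 57.6 in TRF2KO, without overlap (log2 change 1.07 ± 0.10 SE, limma adjusted p = 7.4e-13, and 0.92 after quantile normalization). Cpeb2, a regulator of mRNA translation, had 32.9 and 27.5 against 54.9 and 49.7, and Fsip1, a sperm sheath protein, 20.5 and 17.5 against 28.1 and 32.9. Gm45871, a predicted gene, had 24.6 and 19.8 against 35.9 and 33.8, and Smurf1, a ubiquitin ligase of the BMP pathway, 53.6 and 51.1 against 90.1 and 73.3. The groups did not overlap at any of the 5, and each was called higher under all 3 scalings. Without a mean trend in the variance, the limma adjusted p rose to 0.032 at Ass1, and Fsip1 was not called (limma adjusted p = 0.055).

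Of the 10 promoters called lower after median centring, Itpk1, an inositol phosphate kinase, had ATAC folds of 20 and 14.6 in Control and 10.7 and 7.94 in TRF2KO (log2 change -0.74 ± 0.19 SE, limma adjusted p = 0.0017), a call lost without Control replicate 1 (limma adjusted p = 0.086). Krtap16-1, a keratin-associated protein gene, had 47.4 and 43.7 against 28.8 and 22.5, and Serpina6, the corticosteroid-binding globulin, 28.5 and 29.2 against 16.9 and 19.1. The Serpina6 call was lost without Control replicate 2 (limma adjusted p = 0.090) or TRF2KO replicate 1 (0.052). Klhl40, a sarcomere-stabilizing protein of muscle, had 13.3 and 14.6 against 9.83 and 7.94 but was not called after quantile normalization (limma adjusted p = 0.082), nor without Control replicate 1 (0.056), Control replicate 2 (0.40) or TRF2KO replicate 2 (0.18). Rin1, a Ras effector, had 5.52 and 5.22 against 5.95 and 3.63, so its groups overlapped at the peak over the TRF2 region. The call rested on the strongest peak of the whole open region, at 13.1 and 10.1 against 6.4 and 6.81, and was lost without Control replicate 1 (limma adjusted p = 0.19), Control replicate 2 (0.051) or TRF2KO replicate 1 (0.089). Without a mean trend in the variance none of these 5 calls held. The log2 change at Terf2, which has no TRF2 region by the criteria, was larger than these, at -1.21 ± 0.11 (SE, limma adjusted p = 8.6e-13, and 0.029 without a mean trend). Terf2 was called lower under each of the 3 scalings.

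At the 3 study-named genes with a TRF2 region, median-centred changes were positive and were called neither after quantile normalization nor without centring. Cd34 had ATAC folds of 23 and 20.2 in Control and 28.4 and 23.2 in TRF2KO, which do not overlap (log2 change 0.40 ± 0.13 SE, limma adjusted p = 0.021, and 0.094 after quantile normalization). The Cd34 call was also lost without Control replicate 1 (limma adjusted p = 0.080), Control replicate 2 (0.091) or TRF2KO replicate 1 (0.17). Hey1 had 62.4 and 64.8 against 78 and 72.4 (0.39 ± 0.09 SE, limma adjusted p = 0.00041, and 0.20 after quantile normalization), a call lost without Control replicate 1 (limma adjusted p = 0.052). Dag1 had 93.2 and 90.2 against 110 and 102 (0.36 ± 0.07 SE, limma adjusted p = 0.00019, and 0.37 after quantile normalization). Of the other 4 genes, which hold no region, Dll1 had lower folds in TRF2KO, 28.4 and 28.6, than in Control, 35.7 and 32.8, without overlap. The groups overlapped at Pax7 (54.5 and 48.4 against 47.8 and 50.4), Sdc4 (130 and 113 against 122 and 129) and Myod1 (121 and 102 against 110 and 100).

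At the 10 promoters of highest TRF2 rank, those with a fitted value moved by 0.06 to 0.45 median-centred and by -0.20 to 0.14 after quantile normalization, where none was called. Across the gene lists the medians of the bound genes ran from 0.21 to 0.39 median-centred and from -0.06 to 0.17 after quantile normalization. All TRF2-bound open regions had medians of 0.29 and 0.05, and all open regions 0.10 and 0.02. The quantile fit called 5 of 32 histone genes higher, 3 of 36 repair genes, and at most 2 of any other list, with none lower. That fit called 4.94% of all open regions higher and 7.32% lower, and 5.50% and 0.725% of the TRF2-bound ones. Histone genes share regions.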

How the data were processed

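CUT&Tag for TRF2 (2 libraries) and IgG (1), and ATAC-seq of Control and TRF2KO MuSCs (2 each), were read as deposited peak lists on mm10. Per the labels, the authors aligned with Bowtie2 (2.4.4 for CUT&Tag, 2.5.4 for ATAC-seq), processed alignments with Picard 3.1.1 and SAMtools 1.10, and called peaks with MACS3 (3.0.0 and 3.0.2) and, for ATAC, SEACR 1.3 and GoPeaks. Duplicates, reads without a unique position and improper pairs had been removed, which leaves repeats undercounted. For each library the deposited MACS lists gave the fold enrichment at the summit, a ratio to local background, the −log10 p-value and q-value, and the summit position, and replicates were not pooled. The SEACR and GoPeaks lists were used for positions only, and the authors' consensus lists were not used. Read depth per library is unknown from peak lists. Percentages carry exact Clopper-Pearson 95% intervals, which cover counting error only.

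From these, TRF2 peaks sharing at least 1 bp were merged, and the value of a region was that of its highest peak. Distances were taken to protein-coding transcript starts of GENCODE M21, and sequence came from RefSeq GRCm38.p6. Medians per library were compared with an exact two-sided permutation test. ATAC regions open in all 4 libraries were fitted with limma 3.58.1 (R 4.3.3) on log2 fold, with a mean trend and Benjamini-Hochberg adjustment, after a test on simulated data. Other steps used Python 3.11.15, pandas 2.3.3, SciPy 1.17.1 and numpy 2.4.6. The members and gene lists were chosen with earlier results of these data known. Named genes were the 10 regions of highest mean TRF2 rank and the top 5 with a G4 motif, up to 4 per list by TRF2 rank, the 5 largest limma changes in each direction, up to 3 regions each without ATAC peaks, open in Control alone or nearest the 1 kb limit on either side, and the genes named by the study. Some genes that this rule names, or that share a region with a named gene, are not reported here. Groups came from the titles, which give replicate numbers. Deviations of same-numbered Control and TRF2KO libraries from their group means had a correlation of 0.0128 over open regions, so the numbers were not taken as pairs. Alternative thresholds, callers, scalings, windows and left-out libraries were computed. The design text calls the 2 libraries of a group biological replicates.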

Additional observations from a re-analysis of the deposited data

Results flagged for a closer look

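Signal appeared on a chromosome that the description leaves out. On chromosome X, 92 TRF2 regions with a peak of each replicate and no IgG peak lay within 1 kb of a coding start, where the IgG library had 0 peaks. They reached 101 of 948 coding genes (10.7%), against 24.4% on chromosomes 1 to 19.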

How the results depend on the processing

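The number of regions was 2469 when both TRF2 peaks needed a −log10 q of at least 5, and between 3575 (50% reciprocal overlap) and 6549 (a single replicate) otherwise. The share open in all 4 ATAC libraries was 93.6% by SEACR. The TRF2KO minus Control difference in median rank turned to 0.0545 on centred log2 fold and ran from -0.558 to 0.142 when single libraries were left out, and the difference in the share with a peak turned to 1.61 points by SEACR. limma called 15996 open regions and 3290 with TRF2 as reported, 7555 and 275 after quantile normalization, 5054 and 31 without centring, 1560 and 5 without a mean trend, and 10345 to 13238 and 2428 to 2767 with 1 library left out, the lone library then assumed to vary like the others. With the replicate number as a block the counts were 16031 and 3141, the rank difference was -0.21 (exact sign-flip p = 1) and the share difference -0.10 (exact sign-flip p = 0.5). Over regions with TRF2 the deviations of same-numbered libraries had a correlation of -0.13, and the crossed pairing, added after seeing the data, gave 16905 and 3470. The median summit position was -5 bp by region midpoint and 19 bp by gene start. The G4 share was 67.7% with loops of up to 12 bases, 31.4% in 300-bp windows and 48.5% at a −log10 q of at least 5, and 16.1% of regions held at least 1 telomeric unit. Of 126 values of single promoters under alternatives, 30 lost their call and 0 reversed, and Rin1, Itpk1, Serpina6, Klhl40, Cd34 and Hey1 lost theirs when 1 library was left out. The causes were not tested. Peaks of about 12 fragments limit the position and fold of single regions.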
